A study of Homo sapiens with 8 samples.

Results

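Genes for 7 enzymes that dispose of reactive quinones, carbonyls, enones and epoxides were followed in cultured lung adenocarcinoma cells given an NRF2-inducing electrophile: *NQO1*, *NQO2*, *CBR1*, *CBR3*, *PTGR1*, *EPHX1* and *UGDH*. They were chosen by name, with earlier results of these data known, from the 57815 gene identifiers in the deposited expression files. All 7 were found there. Their counts, set beside the shares of all genes, are therefore a description and not a test of the set. The study sequenced polyadenylated RNA of ABC1 and HCC4006, both established human lung adenocarcinoma cell lines without a *KEAP1* or *NRF2* mutation according to the labels. Each line was given DEM (diethyl maleate in the study's methods, dimethylmaleate in the title of the series), an electrophile that inactivates KEAP1, at 100 µM or its DMSO vehicle for 16 h, with 2 biological replicates per group and 8 libraries in all. Levels are FPKM, fragments scaled by transcript length and library total, which allows levels of different genes to be set side by side.

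NRF2 is a transcription factor that KEAP1 marks for degradation until oxidants or electrophiles modify KEAP1. Stabilized NRF2 enters the nucleus, pairs with small MAF proteins and binds antioxidant response elements near genes for detoxifying enzymes. *NQO1* and *NQO2* encode flavoproteins that reduce quinones by a pair of electrons at once, *CBR1* and *CBR3* encode NADPH-dependent carbonyl reductases, and *PTGR1* encodes a reductase of α,β-unsaturated carbonyls (enones). *EPHX1* encodes microsomal epoxide hydrolase, and *UGDH* encodes the dehydrogenase that makes UDP-glucuronate, the sugar donor of glucuronidation.

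DEM raised 6 of the 7 genes in HCC4006, where 8.45% of all genes tested rose, *CBR3* most and *CBR1* least. In ABC1, where 0.768% of genes rose, *NQO1* and *UGDH* did, a count of 2 that was not kept with any 1 library left out. It was 0 without a trend or a minimum level and 5 in the fit of all 8 libraries or with a replicate block. The smallest change called over all genes was 0.798 in ABC1 and 0.216 in HCC4006 (log2), so the counts of the lines do not compare the size of the response. Between the vehicle-treated lines, *PTGR1* was nearly silent in ABC1, and 5 of the other 6 genes were higher in HCC4006, as were 36.8% of all genes tested. *CBR3* was the 1 member whose DEM response passed the test of a difference between the lines, at 1.32 ± 0.19 (SE) on the log2 scale, where 0.636% of genes passed. That call held under 3 of 14 alternative settings and was lost with each library left out.

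The letters of the antioxidant response element are shown first, because that element is where NRF2 acts. The core TGACNNNGC was searched on both strands of the 1000 bases before the start of each gene's canonical GENCODE transcript in GRCh37. That start lies inside the outermost bounds of the gene for *NQO1*, *CBR1*, *PTGR1*, *NQO2* and *UGDH*, so distances from it are not distances from those bounds. The window of *NQO2* was chr6:2999128-3000127 and that of *UGDH* was chr4:39529060-39530059. Bases before other starts of these genes were not searched. It was found in 3 of the 7 windows, those of *NQO1*, *CBR1* and *PTGR1*, and 6460 of 19894 protein-coding promoters of the same length (32.5%) hold it. From these windows, 4 matches are printed 5′ to 3′ on the strand of the gene with the 9 core letters in capitals, with their distance from the canonical transcript's start, and a core on the opposite strand reads GCNNNGTCA.
*NQO1*, chr16:69760894-69760934, minus strand, 455 bases before the start: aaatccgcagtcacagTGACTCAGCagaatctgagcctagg
*CBR1*, chr21:37441784-37441824, plus strand, 522 bases before the start: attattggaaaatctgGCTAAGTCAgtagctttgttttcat
*CBR1*, chr21:37442147-37442187, plus strand, 159 bases before the start: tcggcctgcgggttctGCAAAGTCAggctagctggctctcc
*PTGR1*, chr9:114362608-114362648, minus strand, 705 bases before the start: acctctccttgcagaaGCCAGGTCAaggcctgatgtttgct

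The *NQO1* match reads TGACTCAGC, a form held by 259 of the 19894 promoters (1.3%) and picked for counting after this match was seen. Its first letters, TGACTCA, are also the AP-1 motif. The windows of *NQO2*, *CBR3*, *EPHX1* and *UGDH* held no such letters, which says nothing about sites elsewhere, other starts of the same genes included. A match is a description of the sequence and was not tested as a binding site.

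The libraries were alike in their totals. The sum of FPKM differed by at most 1.18 times between libraries, 12515 to 13573 genes reached 1 FPKM, and replicates correlated across genes at 0.992 to 0.995 (Pearson's r of log2 values, genes not being independent replicates). FPKM carries no read numbers, so no counting interval is given. The authors' mean normalized counts, which pool the 4 libraries of a line, add up to 13786938 in ABC1 and 13957320 in HCC4006 and give the scale of the depth. *GCLM* and *SRXN1*, NRF2 targets outside the 7, rose in both lines, by 1.61 and 2.64 in ABC1 and by 2.15 and 2.70 in HCC4006 (log2). All 6 epithelial markers were at 1 FPKM or more in every library. The 4 lung lineage markers *NKX2-1*, *NAPSA*, *SFTPB* and *SFTPC* summed to 57.0 to 63.4 FPKM in HCC4006 but only 0.997 to 1.39 FPKM in ABC1, where the lung marker *NKX2-1* was under 1 FPKM in every library, so the lung origin of ABC1 rests on its label. *KRT7*, *KRT8* and *KRT18*, 3 of the 6 epithelial markers, fell with DEM in HCC4006, whose part in the results was not tested. Among markers of other cells, *PTPRC* (leukocytes) did not pass 0.192 FPKM and *VWF* (endothelium) 0.166 FPKM, while the 3 fibroblast markers summed to 3.58 to 6.12 FPKM in ABC1 and 6.99 to 9.12 FPKM in HCC4006. Most of that sum was the collagen gene *COL1A1*, as *COL1A2* was listed at 0 in every ABC1 library and *DCN* in every HCC4006 library.

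Within each line, DEM and vehicle were compared on the log2(FPKM + 1) scale by limma, and p-values were adjusted by Benjamini-Hochberg over every gene whose mean reached 1 FPKM. A log2 fold change on this scale understates the change of low genes. In ABC1, 12635 genes were tested, and 97 of them (0.768%) rose while 55 fell at an adjusted p under 0.05. With upper-quartile scaling, that split was 177 higher and 180 lower. Of the 7 members, 6 were tested and 2 rose, *PTGR1* being under the minimum. In HCC4006, 13542 genes were tested, 1144 (8.45%) rose and 1447 fell, and 6 of the 7 members rose. The tested members had a median log2 fold change of 0.995 (ABC1) and 0.97 (HCC4006), beside −0.02 and −0.03 over all genes tested. Both DEM libraries lay above both vehicle libraries for 5 of the 6 tested members in ABC1, against 25.5% of all genes tested, and for 7 of 7 in HCC4006, against 29.3%. The smallest two-sided p of an exact permutation test at 2 against 2 is 0.333, so no single gene was tested that way.

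**Figure D1:**
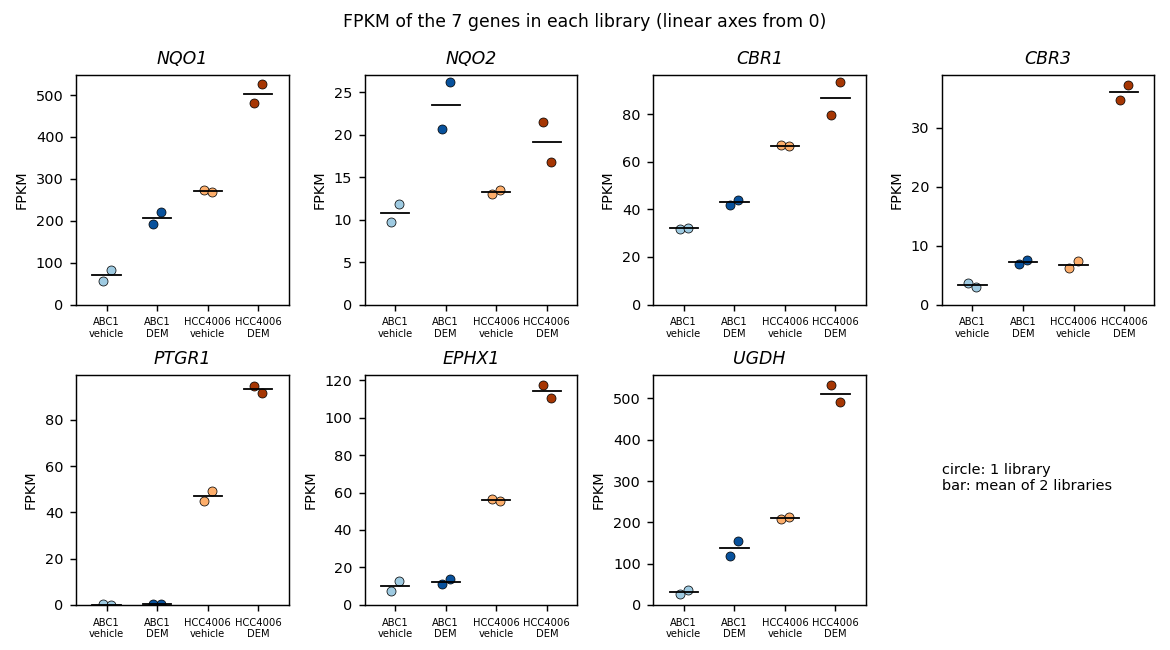
FPKM (linear axis from 0, a separate scale for each gene) of the 7 genes in the 4 groups; each circle is 1 library and each bar the mean of 2. *PTGR1* lies at the axis in ABC1, whereas *NQO1* and *UGDH* lie between 480 and 532 FPKM in the HCC4006 libraries with DEM.

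The quinone reductase *NQO1* (ENSG00000181019.8, GRCh37 chr16:69740899-69760571, minus strand) was among the most abundant of the 7. Its level in ABC1 was 56.0 and 82.8 FPKM with vehicle and 193 and 221 FPKM with DEM. In HCC4006 it was 272.5 and 268.6 FPKM with vehicle and 480 and 525 FPKM with DEM. In neither line did the groups overlap, and the lowest HCC4006 library with vehicle stood above the highest ABC1 library with DEM. The mean went from 69.4 ± 18.9 to 207 ± 20.1 FPKM in ABC1 (SD, n = 2), a ratio of 2.98, and from 271 ± 2.80 to 503 ± 32.1 FPKM in HCC4006, a ratio of 1.86. ABC1 had a log2 fold change of 1.59 ± 0.21 (SE, adjusted p = 0.0422), and HCC4006 one of 0.89 ± 0.07 (adjusted p = 0.00179). In ABC1, leaving out any of the 4 libraries ended the call, with adjusted p of 0.0681 to 0.284 and log2 fold changes of 1.31 to 1.86. In HCC4006 the call held with each library left out (adjusted p of 0.0120 to 0.0163) and was lost without a minimum level (0.0580).

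*NQO1* shares its place with an annotated gene on the other strand. ENSG00000261602, a long non-coding RNA at chr16:69743777-69744486 on the plus strand, has 575 exonic bases, and all of them lie over the 3′ untranslated part of *NQO1*. Its level was 11.0 and 15.3 FPKM in ABC1 with vehicle, 42.5 and 52.7 FPKM with DEM, 46.6 and 45.4 FPKM in HCC4006 with vehicle, and 84.8 and 80.3 FPKM with DEM. These levels followed those of *NQO1*, with a ratio of *NQO1* to the antisense gene of 4.20 to 5.41 in ABC1 and 5.66 to 6.55 in HCC4006. The library kit keeps strand, but the strand setting of the authors' quantification is not given in the sources used here, so reads of the 2 genes cannot be told apart.

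*NQO2* (ENSG00000124588.15, chr6:2988221-3019989, plus strand), whose product uses dihydronicotinamide riboside rather than NADPH as its electron donor, was the lower of the quinone reductases. Its level in ABC1 was 9.70 and 11.8 FPKM with vehicle and 20.7 and 26.3 FPKM with DEM. HCC4006 had 13.02 and 13.5 FPKM with vehicle and 21.6 and 16.7 FPKM with DEM. Both lines had the DEM libraries above the vehicle libraries, and the DEM libraries of the 2 lines overlapped. The ratio of the means was 2.19 in ABC1 and 1.45 in HCC4006, and neither passed the test. ABC1 had a log2 fold change of 1.06 ± 0.17 (95% confidence interval 0.63 to 1.48, adjusted p = 0.0600), and HCC4006 one of 0.49 ± 0.13 (0.16 to 0.82, adjusted p = 0.0524). Both values were near the threshold, and *NQO2* passed it under 4 of 11 alternative settings in ABC1 and 5 of 11 in HCC4006. Without HCC4006 DEM replicate 1, the HCC4006 value was 0.66 (adjusted p = 0.0418). Fitting all 8 libraries together, so that both lines shared 1 estimate of the spread, brought *NQO2* past the threshold in ABC1 (adjusted p = 0.0121) but not in HCC4006 (0.103).

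The FPKM of *NQO1* exceeded that of *NQO2* in every library. The ratio was 6.40 ± 0.883 with vehicle and 8.87 ± 0.631 with DEM in ABC1, and 20.5 ± 0.688 and 26.8 ± 6.46 in HCC4006 (SD, n = 2). The DEM libraries of HCC4006 gave 22.3 and 31.4. Over their coding sequences (822 and 693 bases in GRCh37), the pair were identical at 60.6% of 688 aligned bases. Their longest shared run was 12 bases, far shorter than the 80-base reads.

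*CBR1* and *CBR3* lie next to each other on chromosome 21, with 61.9 kb between the end of one and the start of the other. *CBR1* (ENSG00000159228.8, chr21:37442239-37445464, plus strand) is the broad-specificity carbonyl reductase that acts on prostaglandins and anthracyclines. Its level in ABC1 was 31.9 and 32.2 FPKM with vehicle and 42.0 and 43.9 FPKM with DEM. HCC4006 had 66.9 and 66.6 FPKM with vehicle and 79.9 and 93.6 FPKM with DEM. The groups of each line were apart, but the changes were small, with ratios of 1.34 in ABC1 and 1.30 in HCC4006. On the log2 scale the change was 0.41 ± 0.12 for ABC1 (0.12 to 0.70, adjusted p = 0.133) and 0.37 ± 0.09 for HCC4006 (adjusted p = 0.0429). The HCC4006 call was lost without vehicle replicate 0, vehicle replicate 1 or DEM replicate 1 (adjusted p of 0.142, 0.154 and 0.110) and kept without DEM replicate 0 (0.0427). It was also lost in the fit of all 8 libraries (0.0560), without the trend (0.0935) and without a minimum level (0.224), whereas in ABC1 *CBR1* passed in the fit of all 8 libraries (0.0423).

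*CBR3* (ENSG00000159231.5, chr21:37507377-37518860, plus strand) encodes a relative of CBR1 with a narrower range of substrates. It was near the bottom of the 7 genes in ABC1, at 3.69 and 2.90 FPKM with vehicle and 6.86 and 7.50 FPKM with DEM. HCC4006 had 6.21 and 7.32 FPKM with vehicle and 34.7 and 37.3 FPKM with DEM. The vehicle libraries of HCC4006 overlapped the DEM libraries of ABC1, and the DEM libraries of HCC4006 stood far above all others. The mean went from 3.29 ± 0.557 to 7.18 ± 0.451 FPKM in ABC1, a ratio of 2.18, and from 6.76 ± 0.785 to 36.0 ± 1.86 FPKM in HCC4006, a ratio of 5.32. The log2 fold change was 2.26 ± 0.11 in HCC4006 (adjusted p = 0.000524), the 19th highest of the 13542 genes tested there. In ABC1 it was 0.93 ± 0.17 (0.52 to 1.35, adjusted p = 0.0668), and it passed in the fit of all 8 libraries (adjusted p = 0.00898).

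The balance of the carbonyl reductase pair moved with DEM in HCC4006. The FPKM of *CBR1* was 10.8 and 9.11 times that of *CBR3* in the vehicle libraries and 2.304 and 2.51 times in the DEM libraries. In ABC1 it was 8.66 and 11.1 times with vehicle and 6.12 and 5.85 times with DEM. The pair are close relatives, identical at 77.9% of 828 aligned coding bases. The longest stretch they share exactly begins at base 200 of each coding sequence and is shown because reads inside it could come from either gene, although an 80-base read reaches past it.
*CBR1* and *CBR3*, 49 shared coding bases: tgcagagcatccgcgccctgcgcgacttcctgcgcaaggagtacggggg

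On the opposite strand, *CBR3-AS1* spans all of *CBR3* at 2.13 to 4.66 FPKM, and *SETD4* spans *CBR1* at 5.98 to 10.2 FPKM. In the DEM libraries of HCC4006, *CBR3-AS1* was at 4.66 and 3.43 FPKM beside 4.39 and 3.39 FPKM with vehicle. In the vehicle libraries of ABC1 it was at 3.21 and 2.13 FPKM, near the 3.69 and 2.90 FPKM of *CBR3*. As for *NQO1*, reads of parts that overlap on opposite strands cannot be told apart, and the effect on the *CBR3* values was not tested.

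*PTGR1* (ENSG00000106853.12, chr9:114312002-114362173, minus strand) saturates the double bond of enones such as oxidized eicosanoids and lipid aldehydes, and it was the member that set the lines furthest apart. Its level in ABC1 was 0.210 and 0.0664 FPKM with vehicle and 0.448 and 0.213 FPKM with DEM. In HCC4006 it was 44.8 and 49.4 FPKM with vehicle and 94.7 and 91.7 FPKM with DEM. Every ABC1 library was under 1 FPKM, and the authors' mean normalized count was 3.68 in ABC1 beside 1221 in HCC4006, so a response in ABC1 was not measurable with any precision. In HCC4006 the mean went from 47.1 ± 3.21 to 93.2 ± 2.15 FPKM, a ratio of 1.98, and the log2 fold change was 0.97 ± 0.08 (adjusted p = 0.00206). That call held with each library of the line left out (adjusted p of 0.0115 to 0.0214) and was lost only when no minimum level was set (0.0540).

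*EPHX1* (ENSG00000143819.8, chr1:225997826-226033264, plus strand) opens epoxides to diols in the endoplasmic reticulum. Its level in ABC1 was 7.54 and 12.9 FPKM with vehicle and 10.9 and 13.6 FPKM with DEM. In HCC4006 it was 56.3 and 55.6 FPKM with vehicle and 117 and 111 FPKM with DEM. The groups of ABC1 overlapped, and those of HCC4006 were far apart. The ratio in ABC1 was 1.20 and its log2 value 0.27 ± 0.26 (−0.36 to 0.91, adjusted p = 0.573), a range that holds no change and a rise nearly as large as in HCC4006. Without vehicle replicate 0, the lower of that pair, the ABC1 value was −0.08. In HCC4006 the ratio was 2.04 and the log2 fold change 1.01 ± 0.07 (adjusted p = 0.00147), and the call held with each library left out (0.00967 to 0.0154). An antisense transcript over *EPHX1*, ENSG00000242861, was at 7.13 to 7.62 FPKM in ABC1 and 1.61 to 2.15 FPKM in HCC4006, the opposite order of the lines to that of *EPHX1*. Reads of the parts where it overlaps *EPHX1* cannot be told apart either.

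*UGDH* (ENSG00000109814.7, chr4:39500375-39529931, minus strand), whose product is the cell's main source of UDP-glucuronate, had the largest log2 fold change of the 6 members tested in ABC1. Its level there was 26.1 and 36.2 FPKM with vehicle and 119 and 155 FPKM with DEM. In HCC4006 it was 207 and 212 FPKM with vehicle and 532 and 490 FPKM with DEM. The groups did not overlap in either line, and the vehicle libraries of HCC4006 were above the DEM libraries of ABC1. The mean went from 31.1 ± 7.19 to 137 ± 25.2 FPKM in ABC1, a ratio of 4.40, and from 210 ± 3.78 to 511 ± 29.3 FPKM in HCC4006, a ratio of 2.44. ABC1 had a log2 fold change of 2.11 ± 0.21 (adjusted p = 0.0247), the 28th highest of 12635 genes, and HCC4006 one of 1.28 ± 0.07 (adjusted p = 0.000677). The ABC1 call was lost without vehicle replicate 0 (adjusted p = 0.181) or vehicle replicate 1 (0.0891) and kept without either DEM library. The HCC4006 call held with each library left out (0.00458 to 0.0111).

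**Figure D2:**
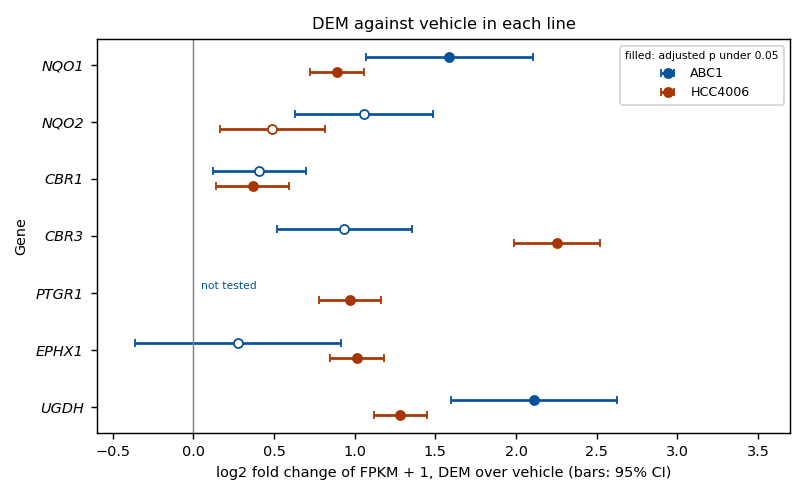
Log2 fold change of FPKM + 1 with DEM over vehicle (x axis) for each gene in ABC1 and HCC4006, with 95% confidence intervals from limma; filled circles have an adjusted p under 0.05. *CBR3* has the highest value in HCC4006 (2.26) and *UGDH* in ABC1 (2.11), and *PTGR1* was not tested in ABC1.

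*NQO1* and *UGDH* made up most of the transcript level of the 7 genes. Their summed FPKM was 157 ± 31.0 with vehicle and 430.4 ± 52.8 with DEM in ABC1, and 670 ± 4.63 and 1363 ± 4.07 in HCC4006 (SD, n = 2). *NQO1* and *UGDH* together held 63.6%, 79.9%, 71.7% and 74.4% of it in these 4 groups. Ranked among all 57815 identifiers, *NQO1* stood at place 1850 and 1324 in the ABC1 vehicle libraries and at 149 and 128 in the HCC4006 libraries with DEM. *UGDH* stood at 3817 and 3063 and at 129 and 140 in the same libraries.

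The lines were next compared at the same treatment, in a fit of all 8 libraries. These comparisons set 1 cell line against another and do not stand for a class of tumours. In bulk RNA, fewer cells of a type and less RNA per cell cannot be told apart. With vehicle, 5 of the 6 members other than *PTGR1* were higher in HCC4006, where 36.8% of 13682 genes were. With DEM, 5 of these 6 were again higher in HCC4006, where 36.6% of genes were. *PTGR1* passed the minimum level in these fits only through HCC4006, so its gap between the lines is a description and no test of it is given. The same 5 of 6 count was found under every alternative processing tried.

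*NQO1* was 3.90 times as high in HCC4006 as in ABC1 with vehicle and 2.43 times with DEM, with log2 differences of 1.97 ± 0.18 (adjusted p = 3.67e-05) and 1.28 (adjusted p = 0.000398). *UGDH* was 6.73 times as high with vehicle and 3.73 times with DEM, with log2 differences of 2.73 ± 0.18 (adjusted p = 6.49e-06) and 1.90 (adjusted p = 4.56e-05). For both genes the gap in fold was smaller with DEM, as the larger ratio of DEM to vehicle in ABC1 makes it. *CBR1* was 2.08 times as high with vehicle and 2.02 times with DEM, with log2 differences of 1.04 ± 0.10 and 0.99 (adjusted p = 5.66e-05 and 7.10e-05).

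*CBR3* and *EPHX1* went the other way. *CBR3* was 2.05 times as high in HCC4006 with vehicle and 5.02 times with DEM, with log2 differences of 0.86 ± 0.13 (adjusted p = 0.000797) and 2.18 (adjusted p = 5.19e-06). *EPHX1* was 5.47 times as high with vehicle and 9.30 times with DEM, with log2 differences of 2.39 ± 0.22 (adjusted p = 4.16e-05) and 3.13 (adjusted p = 9.74e-06). *PTGR1* had the widest gap of the 7, with log2 differences of 5.40 with vehicle and 6.15 with DEM. Its size depends on the constant added before taking logs, and with 0.1 in place of 1 the vehicle difference was 7.70.

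*NQO2* was the tested member without a call between the lines. Its log2 difference was 0.28 ± 0.17 with vehicle (−0.11 to 0.67, adjusted p = 0.166) and −0.28 with DEM (−0.67 to 0.11, adjusted p = 0.167). The intervals leave room for differences of about the size of its DEM response in HCC4006.

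**Figure D3:**
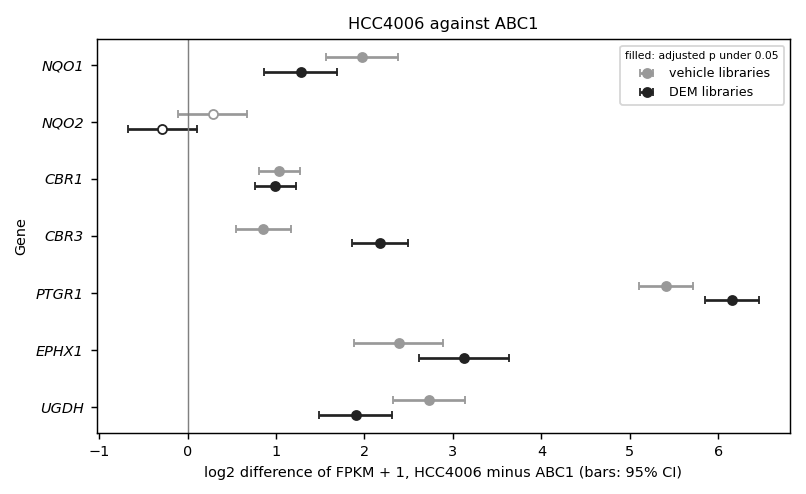
Log2 difference of FPKM + 1, HCC4006 minus ABC1 (x axis), for each gene in the vehicle and in the DEM libraries, with 95% confidence intervals; filled circles have an adjusted p under 0.05. *PTGR1*, which passed the minimum level only through HCC4006, lies at 5.40 and 6.15, and both *NQO2* intervals cross 0. The filled circles of *PTGR1* are not counted as calls.

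The order of the group means was the same for 5 of the 7 genes. The share of all genes with this order was not counted, so this is a description. For *NQO1*, *CBR1*, *PTGR1*, *EPHX1* and *UGDH*, HCC4006 with DEM was highest, followed by HCC4006 with vehicle, ABC1 with DEM and ABC1 with vehicle. Each group was apart from the next except the ABC1 groups of *EPHX1*. The ABC1 groups of *PTGR1* were apart only by 0.213 FPKM (DEM replicate 1) against 0.210 FPKM (vehicle replicate 0), too low for a precise order. For *CBR3*, the middle groups changed places and overlapped. For *NQO2*, ABC1 with DEM had the highest mean and overlapped HCC4006 with DEM.

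Whether DEM acted differently in the lines was tested as the difference of the log2 fold changes, HCC4006 minus ABC1. Of 13682 genes, 87 (0.636%) passed, and 1 of the 7 members, *CBR3*, was among them at 1.32 ± 0.19 (0.88 to 1.76, adjusted p = 0.0378). That call was lost with each of the 8 libraries left out in turn, with values of 1.19 to 1.45 and adjusted p of 0.0700 to 0.172. It was also lost with a constant of 0.1 and without a minimum level. *NQO1* had a difference of −0.70 (−1.28 to −0.12, adjusted p = 0.248) and *UGDH* one of −0.83 (−1.41 to −0.25, adjusted p = 0.189), both on the side of the larger value in ABC1. *NQO2* had −0.57 (−1.12 to −0.02, adjusted p = 0.315). *EPHX1* and *PTGR1* lay on the other side, at 0.74 (0.02 to 1.46, adjusted p = 0.315) and 0.75. The *PTGR1* value was 0.12 with a constant of 0.1, as its ABC1 levels are under 1 FPKM. *CBR1* was nearest to 0, at −0.04 (−0.37 to 0.29, adjusted p = 0.930).

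The other genes of the same chemistry were read from lists of 55 genes, 52 of them found in the files. Of these, 30 were tested in ABC1, of which 6 rose and none fell, and 36 in HCC4006, of which 9 rose and none fell. Over all genes tested, 0.768% rose in ABC1 and 8.45% in HCC4006. The lists were chosen with earlier results of these data known, so these counts are a description. The listed genes had median log2 fold changes of −0.04 (ABC1) and −0.03 (HCC4006), close to those of all genes. The calls were among the quinone and flavoprotein reductases and the carbonyl reductases, plus 1 gene of glucuronidation.

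Among 11 quinone and flavoprotein reductases, 3 of 10 tested rose in ABC1 and 3 of 11 in HCC4006, where 0.768% and 8.45% of all genes did. *TXNRD1*, the cytosolic thioredoxin reductase, rose in both lines, by 1.81 and 2.40 (adjusted p = 0.0183 and 8.78e-05). *BLVRB*, a flavin and biliverdin reductase, rose by 0.80 and 0.93 (adjusted p = 0.0482 and 0.00163). *AIFM2*, an NAD(P)H-dependent reductase of ubiquinone, rose in HCC4006 by 0.92 (adjusted p = 0.00567). *TP53I3*, a p53-induced quinone oxidoreductase homologue, rose in ABC1 by 2.05 (adjusted p = 0.00798). Its level was 4.37 and 4.40 FPKM with vehicle and 21.2 and 21.4 FPKM with DEM in ABC1, and 41.0 and 43.2 FPKM beside 46.4 and 46.1 FPKM in HCC4006. The difference of its responses, −1.92, passed the test (adjusted p = 0.00406), a call not followed through the alternative settings.

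Of the 16 carbonyl reductases listed, 12 were tested in ABC1 and 14 in HCC4006, and those that rose were all aldo-keto reductases. *AKR1C1*, *AKR1C2* and *AKR1C3*, which reduce ketones of steroids and other carbonyls, rose by 3.25, 3.57 and 2.40 in ABC1 (adjusted p = 0.00428, 0.0307 and 0.0317) and by 1.99, 1.25 and 0.97 in HCC4006 (adjusted p = 0.00182, 0.00467 and 0.0368). These genes are near copies of each other, so the split of reads among them is uncertain. The response of *AKR1C1* differed between the lines by −1.26 (adjusted p = 0.0388). This call was near the threshold and was not followed through the alternative settings. *AKR1B10* rose by 1.67 and *AKR1B1*, aldose reductase, by 0.71 in HCC4006 (adjusted p = 0.00085 and 0.00331). Both were under the minimum level in ABC1 and were not tested there, so these rises are not particular to HCC4006. In ABC1, *AKR1B10* was at 0.402 and 0.371 FPKM with vehicle and 1.45 and 1.56 FPKM with DEM, and *AKR1B1* did not pass 0.554 FPKM.

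The lists nearest to *PTGR1*, *EPHX1* and *UGDH* had few tested genes. None of the 4 enone reductases tested was called in either line, with median log2 fold changes of −0.43 in ABC1 and −0.10 in HCC4006. Neither was any other epoxide hydrolase, of which 1 was tested in ABC1 and 4 in HCC4006. In HCC4006 *EPHX2* had −0.40, *EPHX3* −0.07, *EPHX4* −0.47 and *LTA4H* −0.02. Of the 18 genes of UDP-glucuronate supply and use, 3 were tested in each line and *UXS1*, which turns UDP-glucuronate into UDP-xylose, rose by 0.41 in HCC4006 (adjusted p = 0.0135). The glucuronosyltransferases of the UGT1A and UGT2B families that were matched were under 1 FPKM in all libraries.

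**Figure D4:**
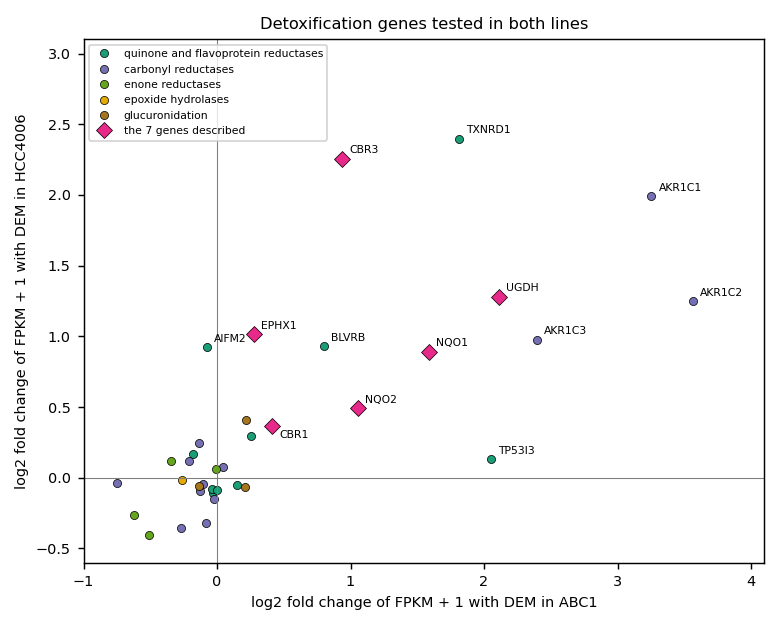
Log2 fold change of FPKM + 1 with DEM in ABC1 (x axis) and HCC4006 (y axis) for 6 of the 7 genes (diamonds) and the listed genes of the same chemistry tested in both lines (circles); names mark the diamonds and circles beyond 0.9 in either line. Most circles lie near 0, and the AKR1C genes, *TXNRD1* and *TP53I3* lie among or beyond the diamonds.

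The genes whose levels followed each member most closely were found by Pearson's r of log2(FPKM + 1) over the 8 libraries, among 13682 genes. These libraries share lines and treatments, so a high r needs only the same order of 4 groups. *NQO1* was followed most closely by *UGDH*, *PYCR1* and *JMJD6* (0.997, 0.995 and 0.995), and *UGDH* by *SEL1L3*, *NQO1* and *PYCR1* (0.997, 0.997 and 0.996), so that the quinone reductase and the UDP-glucose dehydrogenase stood among each other's nearest genes. *NQO2* was followed by *AIMP2*, *DNAJB1* and *NT5C2* (0.983, 0.975 and 0.970) and *CBR3* by *STXBP5*, *HAPSTR1* and *DUSP5* (0.990, 0.988 and 0.987). *CBR1* was followed by *CCDC93*, *AGFG1* and *JRKL* (0.996, 0.996 and 0.995). *EPHX1* had *SH3TC1*, *EPS15L1* and the unnamed ENSG00000182909.5 (0.998, 0.997 and 0.997) and *PTGR1* had *ABHD15*, *GRB10* and *GCNT3* (0.999 each).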

How the data were processed

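RNA of 8 libraries was sequenced as paired 80-base reads from a strand-specific polyA kit. The submitters' processing notes name bcl2fastq, cutadapt 1.15, STAR 2.5.3a, SAMtools, HTSeq, Cuffnorm, DESeq2, R 3.2.0 and the hg19 build. The authors deposited FPKM values per gene and library, which were used without further scaling. Their mean normalized counts per line, a signal that the authors pooled over 4 libraries, served only as a guide to depth. The fold changes and p-values that the authors deposited were not used. Libraries were grouped by the labels.

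Genes whose mean reached 1 FPKM over the libraries fitted were tested on log2(FPKM + 1) with limma 3.58.1 (mean-variance trend, no block) in R 4.3.3, with Benjamini-Hochberg adjustment over all genes tested and a threshold of 0.05, and the fit was tested on simulated data. DEM was compared with vehicle within the 4 libraries of a line, and the lines and the difference of responses over all 8. Alternatives were a pseudocount of 0.1, no minimum, no trend, median-of-ratios and upper-quartile scaling, a replicate block, other sets of libraries in the fit and leaving out each library. Named were the 7 genes, the called genes of each list up to the 3 largest changes per line, 2 NRF2 targets, overlapping genes and the 3 genes most like each member; the fold changes of uncalled epoxide hydrolases were added after their values were seen. The members and lists were chosen with earlier results of these data known. Gene positions, coding bases and promoters came from the GRCh37 genome and its GENCODE annotation, with symbols for 55534 of 57815 identifiers. Alignments were made with biopython 1.88 and figures with matplotlib 3.10.9. One match of the motif search is not reported here.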

Additional observations from a re-analysis of the deposited data

Results flagged for a closer look

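The response of *CBR3* to DEM was larger in HCC4006 than in ABC1 by 1.32 on the log2 scale, a difference past the threshold of the test of the difference itself (limma, adjusted p = 0.0378). All 4 DEM libraries were above the vehicle libraries of their own line. The call was lost when any 1 of the 8 libraries was left out (adjusted p of 0.0700 to 0.172), while the value stayed between 1.19 and 1.45.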

How the results depend on the processing

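In ABC1, where 2 members and 97 genes rose with DEM, no minimum level left 0 members and 0 genes (3883 genes had an unadjusted p under 0.05 in limma) and no trend 0 members and 27 genes. Median-of-ratios and upper-quartile scaling gave 184 and 177 genes, and *NQO2* joined *NQO1* and *UGDH* under both (limma, adjusted p = 0.0342 and 0.0320). The fit of all 8 libraries gave 5 members and 738 genes, and the replicate block 5 members and 1185 genes. Leaving out 1 library gave 0 to 1 members and 10 to 51 genes. In HCC4006, where 6 members and 1144 genes rose, no minimum level gave 3 members and 177 genes, the fit of all 8 libraries 706 genes, and leaving out 1 library 5 to 6 members and 290 to 464 genes. For the difference of responses, with 1 member and 87 genes, a pseudocount of 0.1 gave 0 members and 20 genes, no minimum level 0 and 403, the replicate block 0 and 13, and leaving out 1 library 0 members and 4 to 41 genes. Between the lines, 5 of the 6 members other than *PTGR1* were called under every alternative, with vehicle and with DEM. With DEM in HCC4006, every member, *NQO2* included, was called with a pseudocount of 0.1, both scalings and the replicate block. *NQO2* had adjusted p of 0.0422 to 0.0490 in these limma fits, and *CBR1* lost its call in the fit of all 8 libraries (0.0560). The cause of these moves was not tested, and fewer libraries leave fewer degrees of freedom.

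Of 451 values of single members under the alternatives, 406 kept direction and call, 29 lost the call, 13 gained it and 3 reversed. These counts take in *PTGR1* between the lines, with 15 values for vehicle, 15 for DEM and 14 for the difference of responses. Since *PTGR1* passed the minimum level only through HCC4006, the 406 is not a count of firm calls. The reversals were of uncalled values, *EPHX1* in ABC1 without vehicle replicate 0 (−0.078, the others without 1 library being up to 0.63) and the difference of *CBR1* with upper-quartile scaling (0.0062) and without HCC4006 DEM replicate 0 (0.072, the lowest being −0.15 without DEM replicate 1). Replicate numbers name no shared day or batch in the labels, and the deviations of same-numbered libraries correlated across genes at 0.257 in ABC1 and 0.0538 in HCC4006, so the block was not taken as a pairing. A library left alone in its group was assumed to vary like the others. *PTGR1* in ABC1, at an authors' mean normalized count of 3.68, was too low for a precise value.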
